A study of Homo sapiens with 24 samples.

Results

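The 10 genes described here encode the pocket proteins (RB1, RBL1, RBL2), the core of the MuvB complex (LIN9, LIN37, LIN52, LIN54), 2 factors of the MYB family (MYBL1, MYBL2) and the forkhead factor FOXM1. They were taken by gene identifier from the 57500 genes counted in each library, and all 10 passed the filter on low counts in both assays. H2052 is an established human cell line of pleural mesothelioma, a cancer of the membrane around the lungs. The cells received 20 nM of a biotinylated mimic of miR-497-5p, written miR-497-5p-RE in the sample names, or a biotinylated scrambled mimic as control, and were taken after 12 h or 72 h. At each time the input RNA (called RNA-seq) and the RNA captured on streptavidin beads from cytoplasmic extract (pull-down) were sequenced after poly(A) selection. This gave 8 groups of 3 libraries. All groups come from this 1 line and all carry a transfected mimic, and no untransfected cells were analysed here.

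In resting cells RBL1 or RBL2 joins E2F4 and the MuvB core to form DREAM, a repressor of genes of the cell cycle, while RB1 holds the activating E2F factors. Phosphorylation by cyclin-dependent kinases breaks these repressor complexes. MuvB then binds MYBL2 and recruits FOXM1 to switch on genes of G2 and mitosis. MYBL2 and FOXM1 are themselves genes of this programme.

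The mature sequence of hsa-miR-497-5p (MIR497, minus strand, chr17:7017979-7017999, RefSeq on GRCh38.p14) is shown with its seed, bases 2 to 8, in capitals, because the seed decides which transcripts a microRNA pairs with.
hsa-miR-497-5p: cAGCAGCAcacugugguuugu
Sites for this seed were searched in every member, using its longest 3′ UTR in the annotation. A 6mer site reads GCTGCT in the DNA letters of the transcript. A 7mer-A1 site carries an A after it, a 7mer-m8 site reads TGCTGCT, and an 8mer site, TGCTGCTA, has both. MYBL1 had 2 8mer sites, at bases 1435 and 1464 of its 3′ UTR, and was the 1 member of 10 with a 7mer-m8 or 8mer site. Over all 19245 genes with an annotated 3′ UTR, 4.5% had an 8mer site and 22.9% had a 7mer-m8 or 8mer site. RBL1 had 2 6mer sites and RBL2 and LIN52 had 1 each. RB1, LIN9, LIN37, LIN54, MYBL2 and FOXM1 had no match in this window. A match is a description of the letters and does not show that the site is used.

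The 4 6mer matches are printed with their surroundings from GRCh38, on the strand of the transcript and with the 6mer in capitals, because these are the weakest of the 4 site types of the microRNA. The first RBL1 match lies at chr20:36997700-36997705 and the other at chr20:36997473-36997478, both on the minus strand. The RBL2 match lies at chr16:53490529-53490534 and the LIN52 match at chr14:74198980-74198985, both on the plus strand. All 4 are exonic and lie in the 3′ UTR.
RBL1, first match: aaataggcaGCTGCTtctgaagcc
RBL1, second match: agtaaaataGCTGCTtattacttc
RBL2: actgtcaagGCTGCTtagaatcca
LIN52: caGCTGCTtgcggacaggatgtcc
The LIN52 match starts at base 3 of the 3′ UTR, next to the stop codon. The RBL1 matches start at bases 1054 and 1281 and the RBL2 match at base 229.

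The RNA-seq libraries held 21561816 to 30602007 counts and the pull-down libraries 8262425 to 30650982, the lowest being the miR-497-5p pull-down at 72 h, replicate 2. The biological coefficient of variation, the spread between libraries beyond counting error, was 0.06 in RNA-seq and 0.349 in the pull-down, so a pull-down difference had to be larger to pass. All 10 mesothelial and mesothelioma markers were detected in every group, with summed levels of 3740 to 6710 CPM (counts scaled to a library size common to all libraries, with TMM factors) in RNA-seq. In the RNA-seq controls at 12 h most of the sum was KRT8, KRT18, KRT19 and VIM, with means of 845, 785, 945 and 1090 CPM. MSLN had 67.9, PDPN 35.3, WT1 19.8, LRRN4 13.6, CALB2 1.57 and UPK3B 0.248 CPM. UPK3B did not pass the filter on low counts. Markers of squamous epithelium, which these cells should lack, summed to 136, 337 and 348 CPM in the RNA-seq controls at 12 h and to 5.72, 15.7 and 276 CPM with miR-497-5p, with all 12 markers detected. The arms differed by gene in edgeR's quasi-likelihood test: 5 of the 12 were lower with miR-497-5p at 12 h in RNA-seq and 1 was higher, with a median of -2.53 against 0.01 for all genes. CRNN, a protein of differentiated squamous cells, had 6.97 to 10.8 CPM in the controls and 0 to 0.0624 CPM with miR-497-5p (-7.81 ± 0.36, adjusted p 2.37e-20), and MAL (-3.29 ± 0.34) and TGM3 (-3.51 ± 0.36) were also low in all 3 libraries with the microRNA. SPRR3 and KRT4 were the other lower markers, and LCE3D was the higher one (1.92 ± 0.61). Other markers were high in miR-497-5p replicate 1: KRT6A had 119, S100A8 52.8, S100A9 33.9 and SPRR1B 9.42 CPM there. The highest controls had 84.4, 46.7, 27.7 and 8.23 CPM, and none of these markers was called. In the 12 h pull-down the same sums ran from 6.82 to 428 CPM in the controls and from 15 to 336 CPM with miR-497-5p, and every library of 72 h had at most 1.32 CPM, with 6 to 8 of the 12 markers without a count in a group. Blood cell markers reached 417 and 508 CPM in 2 RNA-seq controls of 12 h and 429 CPM in 1 library with miR-497-5p. The part of these transcripts in the 12 h results was not tested, and the range on leaving out each library in turn is given beside MYBL1, the member called in RNA-seq at 12 h. The labels do not say that the 3 libraries of a group came from separate cultures, so p-values measure the spread between these libraries, which may be technical. In RNA of a whole culture, fewer cells in a phase of the cell cycle and less RNA per cell cannot be told apart.

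Levels of different genes are compared as RPKM, which is CPM divided by the exon length in kilobases. In the RNA-seq controls at 12 h MYBL2 was highest at 102 ± 2.2 RPKM (SD, n = 3), followed by FOXM1 at 74.2 ± 1.34 RPKM. MYBL1, the less abundant of the MYB pair, followed at 6.95 ± 0.507 RPKM. LIN54 stood at 4.15 ± 0.114 RPKM, RB1 at 3.73 ± 0.261, LIN52 at 3.68 ± 0.168, RBL1 at 3.49 ± 0.2 and RBL2 at 3.37 ± 0.222 RPKM. The libraries of RB1, LIN52, RBL1 and RBL2 overlapped with their neighbours, and the lowest LIN54 library met the highest RB1 library at 4.04 RPKM, so the order within these 5 genes is not beyond the spread. LIN37 at 2.05 ± 0.253 and LIN9 at 1.59 ± 0.0957 RPKM were lowest. In the controls at 72 h MYBL2 stood at 127 ± 2.13 and FOXM1 at 44.4 ± 1.07 RPKM, and no other member exceeded 6.47 RPKM in any library. With miR-497-5p at 72 h MYBL2 and FOXM1 were still the highest, at 45 ± 0.447 and 14.7 ± 0.39 RPKM. RB1 came next at 4.26 ± 0.413 RPKM, with its 3 libraries (3.8 to 4.59) above all 3 of MYBL1 (3.28 to 3.76).

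**Figure D1:**
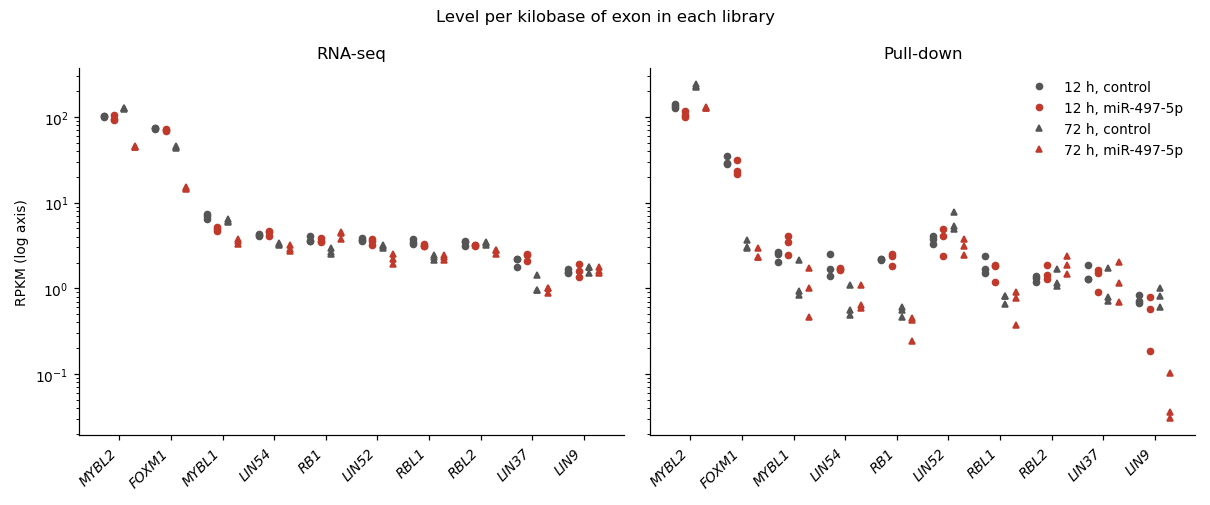
Level of each gene in RPKM (log axis) in every library, RNA-seq on the left and pull-down on the right; grey marks control, red miR-497-5p, circles 12 h and triangles 72 h. MYBL2 and FOXM1 lie above the other 8 genes in all RNA-seq libraries, and LIN9 lies lowest in the pull-down with miR-497-5p at 72 h.

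The threshold for a call was 0.05 for the Benjamini-Hochberg adjusted p of edgeR's quasi-likelihood test. Each change is the log2 ratio of miR-497-5p to control, given ± its standard error. In RNA-seq at 12 h 1 of the 10 members was called, MYBL1, against 12.5% of the 17335 genes tested (7.25% higher and 5.3% lower), or 8.04% without control replicate 2. At 72 h 7 of 10 were called, 1 higher and 6 lower, against 57.5% of all genes (27.9% higher and 29.6% lower). The higher member was RB1, and the lower members were RBL2, LIN52, LIN54, MYBL1, MYBL2 and FOXM1. The median log2 fold change of the 10 was -0.06 at 12 h and -0.26 at 72 h. Scaled by library totals instead of TMM, 722 genes were higher and 1746 lower at 12 h (1256 and 919 with TMM), and 3808 higher and 6137 lower at 72 h (4835 and 5128). The count of 7 in 10 is near the background of 72 h.

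**Figure D2:**
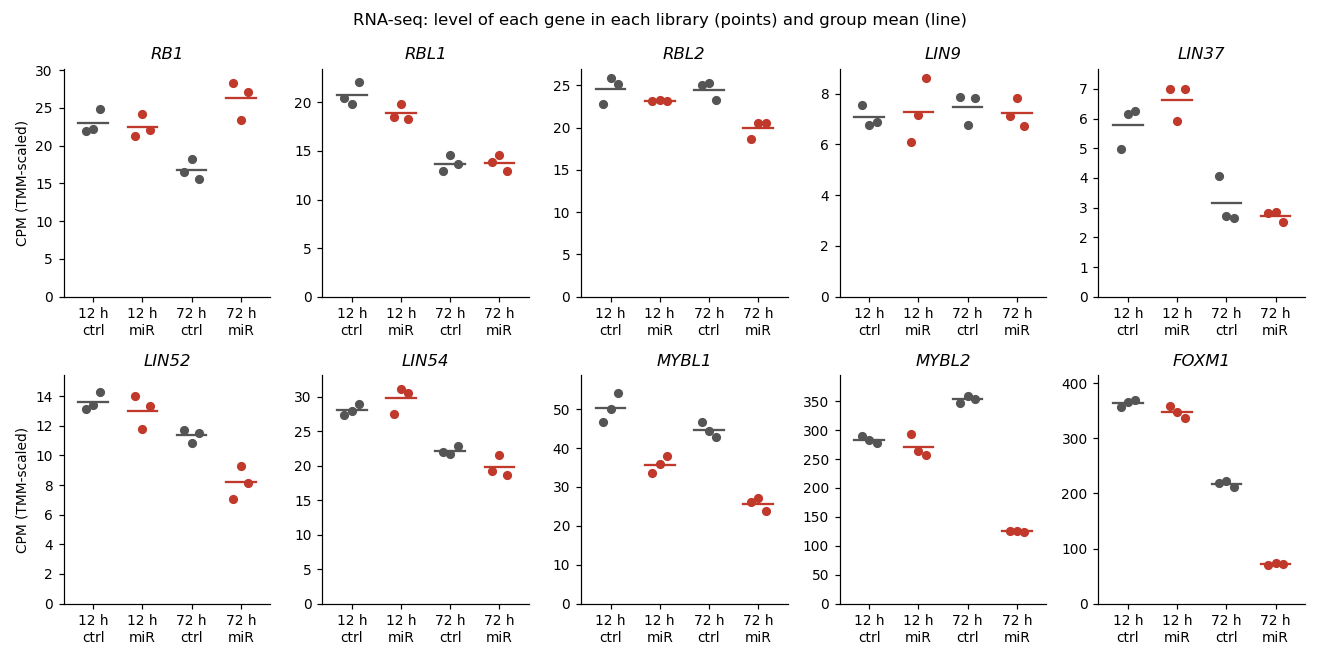
RNA-seq level (CPM, scaled by TMM) of each gene in each library as points, with the group mean as a line; grey is control and red is miR-497-5p, at 12 h and 72 h. At 72 h the miR-497-5p libraries lie below every control for MYBL2, FOXM1, MYBL1, LIN52, LIN54 and RBL2 and above every control for RB1.

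Of the pocket proteins, RB1 (ENSG00000139687, chromosome 13, 48303751 to 48481986 in GRCh38) restrains the activating E2F factors. At 72 h its RNA-seq level was 15.6, 16.5 and 18.3 CPM in the controls and 23.4, 27.1 and 28.3 CPM with miR-497-5p. The groups did not overlap, and RB1 rose by 0.65 ± 0.08 (adjusted p 7.85e-10), to 1.56 times the control. At 12 h its 6 libraries ran from 21.3 to 24.9 CPM with overlapping groups and a change of -0.03 ± 0.07 (adjusted p 0.849). The difference between the times was 0.68 ± 0.11 (adjusted p 5.23e-07, against 48.8% of all genes called in that contrast). The control libraries of RB1 were lower at 72 h than at 12 h, so the level with miR-497-5p at 72 h, 26.3 ± 2.55 CPM, lay nearer the 12 h controls (23 ± 1.61 CPM) than the 72 h controls (16.8 ± 1.39 CPM).

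RBL1 (p107; ENSG00000080839, chromosome 20, 36996349 to 37095995), the pocket protein that is itself made in cycling cells, was not called at either time. Its controls held 12.9, 13.7 and 14.6 CPM at 72 h and its miR-497-5p libraries 12.9, 13.9 and 14.6 CPM. The change was 0 ± 0.08 (95% interval -0.16 to 0.17, adjusted p 0.992), or -0.11 when scaled by library totals, and at 12 h it was -0.14 ± 0.07 (adjusted p 0.241). RBL2 (p130; ENSG00000103479, chromosome 16, 53433977 to 53491649) is the pocket protein typical of resting cells. At 72 h it held 23.3, 25 and 25.3 CPM in the controls and 18.7, 20.5 and 20.6 CPM with miR-497-5p, with no overlap. RBL2 fell by 0.3 on the log2 scale (± 0.07, adjusted p 0.000239), to 0.812 of the control, and at 12 h its value was -0.09 ± 0.07 (adjusted p 0.449). Of the exon bases of RBL2, 18.2% also belong to exons of genes on the other strand, AKTIP among them, and since the strand setting of the counting is not stated such reads cannot be told apart. The difference between times did not pass for RBL2 (-0.21 ± 0.1, adjusted p 0.0638). Scaled by library totals it was -0.27 with an adjusted p of 0.0171.

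Of the MuvB core, LIN52 (ENSG00000205659, chromosome 14, 74084796 to 74201235) is the subunit whose phosphorylation by DYRK1A favours the assembly of DREAM. Its RNA-seq level at 72 h was 10.8, 11.5 and 11.7 CPM in the controls and 7.06, 8.16 and 9.31 CPM with miR-497-5p. The groups did not overlap, and LIN52 fell by 0.48 on the log2 scale (± 0.1, adjusted p 0.000116), to 0.719 of the control. At 12 h the change was -0.06 ± 0.09 (adjusted p 0.752), and the effect at 72 h differed from it by -0.41 ± 0.14 (adjusted p 0.0124). That difference no longer passed with an offset for transcript length (-0.29, adjusted p 0.0805) or without the miR-497-5p replicate 1 of 72 h (-0.31, adjusted p 0.0807).

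LIN54 (ENSG00000189308, chromosome 4, 82909973 to 83012926) is the subunit that binds DNA at the CHR element. It held 21.7, 22 and 22.8 CPM in the controls at 72 h and 18.6, 19.3 and 21.5 CPM with miR-497-5p. The groups were close but did not overlap, and LIN54 fell by 0.16 on the log2 scale (± 0.07, adjusted p 0.0465). This call was the least secure of the 7: it was lost in DESeq2 (adjusted p 0.123), under RLE scaling (0.0668), with a length offset (0.0524) and on leaving out any 1 of the 6 libraries other than miR-497-5p replicate 2 (adjusted p 0.06 to 0.218, and 0.0147 without that replicate). LIN9 (ENSG00000183814, chromosome 1, 226231149 to 226309869), a scaffold subunit, had 6.76, 7.82 and 7.86 CPM in the 72 h controls and 6.71, 7.11 and 7.83 CPM with miR-497-5p (-0.05 ± 0.13, adjusted p 0.753, and 0.02 with a length offset). LIN37 (ENSG00000267796, chromosome 19, 35748361 to 35754519), a subunit needed for repression by DREAM, stood at 2.66 to 4.07 CPM in the 72 h controls and 2.51 to 2.86 CPM with miR-497-5p (-0.21 ± 0.18, adjusted p 0.318). At 12 h the changes of LIN9, LIN37 and LIN54 were 0.05 ± 0.12, 0.19 ± 0.14 and 0.09 ± 0.06, with adjusted p-values of 0.857, 0.433 and 0.449. Of the exon bases of LIN37, 54.0% are shared with other annotated genes on either strand, so its counts are uncertain.

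MYBL1 (A-MYB; ENSG00000185697), the factor with the pair of 8mer sites, was the member called at both times in RNA-seq. At 12 h it stood at 46.8, 49.9 and 54.1 CPM in the controls and 33.5, 35.8 and 38 CPM with miR-497-5p. The groups did not overlap, and MYBL1 fell by 0.49 on the log2 scale (± 0.06, adjusted p 6.26e-08), to 0.712 of the control. Leaving out each of the 6 libraries in turn gave -0.54 to -0.43, with adjusted p-values of 3.39e-08 to 1.12e-05. At 72 h its controls held 42.9, 44.4 and 46.8 CPM and its miR-497-5p libraries 23.8, 26 and 27.2 CPM. MYBL1 then fell by 0.8 on the log2 scale (± 0.07, adjusted p 9.82e-15), to 0.574 of the control, and the difference between the times was -0.31 ± 0.09 (adjusted p 0.0032).

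MYBL2 (B-MYB; ENSG00000101057, chromosome 20, 43667019 to 43716496) is the MYB factor that joins MuvB in cycling cells. At 12 h its controls held 277, 283 and 289 CPM and its miR-497-5p libraries 257, 264 and 293 CPM, and the groups overlapped. The change was -0.06 ± 0.04 (adjusted p 0.311), but it passed without miR-497-5p replicate 1 (-0.12, adjusted p 0.00653), when scaled by library totals (-0.11, adjusted p 0.0224) and with a length offset (-0.12, adjusted p 0.02). At 72 h MYBL2 held 347, 354 and 359 CPM in the controls and 123, 125 and 126 CPM with miR-497-5p. The highest treated library lay far below the lowest control, and MYBL2 fell by 1.5 on the log2 scale (± 0.04, adjusted p 9.37e-33), to 0.354 of the control. The control level was higher at 72 h than at 12 h, in contrast to FOXM1, and the difference between the times in the effect was -1.44 ± 0.05 (adjusted p 3.15e-26).

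FOXM1 (ENSG00000111206, chromosome 12, 2857681 to 2877155) is the factor that acts latest in this series of complexes. At 12 h it held 356, 366 and 369 CPM in the controls and 337, 348 and 358 CPM with miR-497-5p. The groups overlapped, and the change was -0.06 ± 0.03 (adjusted p 0.248), which passed when scaled by library totals (-0.11, adjusted p 0.0126). At 72 h its controls held 212, 218 and 223 CPM and its miR-497-5p libraries 70.1, 72.3 and 73.9 CPM. FOXM1 fell by 1.59 on the log2 scale (± 0.04, adjusted p 3.1e-34), to 0.332 of the control, the largest change of the 10 members in RNA-seq. The difference between the times was -1.53 ± 0.05 (adjusted p 4.62e-28). Of its exon bases, 15.9% are shared with ITFG2 on the other strand.

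**Figure D3:**
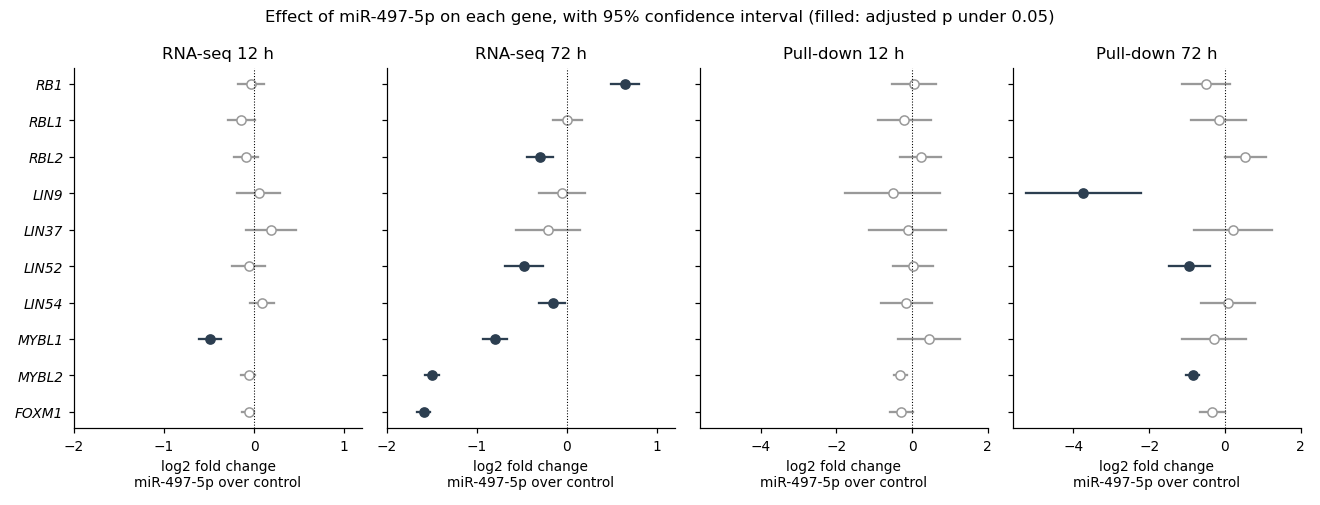
Log2 fold change of each gene, miR-497-5p over control, in the 4 comparisons, with 95% confidence intervals as bars; filled points passed an adjusted p of 0.05. The RNA-seq panels run from -2 to about 1 and the pull-down panels from below -5 to 2, and intervals are wider in the pull-down.

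The pull-down samples transcripts held with the biotinylated mimic, together with RNA that stays on the beads without it, and the control mimic gives the level to compare with. At 12 h none of the 10 members was called in edgeR's quasi-likelihood test, against 0.595% of the 17477 genes tested (0.326% higher and 0.269% lower). With library totals 78 genes were higher and 17 lower, against 57 and 47 with TMM. The split also moved with the libraries of this comparison alone (77 higher and 12 lower) and without control replicate 3 (62 and 206, or 1.44% of the genes tested). At an unadjusted p under 0.05 in edgeR's quasi-likelihood test there was 1 member of 10, MYBL2, against 1763 of the 17477 genes tested, a like share. DESeq2 also called MYBL2, against 0.983% of all genes. MYBL2 held 356, 370 and 389 CPM in the controls and 281, 293 and 326 CPM with miR-497-5p, and the groups did not overlap. Its change was -0.31 ± 0.08 (adjusted p 0.103, 0.0461 without miR-497-5p replicate 1, and 0.00531 in DESeq2). FOXM1 had 137, 144 and 173 CPM in the controls and 106, 114 and 155 CPM with miR-497-5p, a change of -0.28 ± 0.14 (adjusted p 0.533).

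MYBL1, the member with 8mer sites, held 14.8, 18.4 and 19.5 CPM in the 12 h pull-down controls and 17.6, 25.2 and 29.3 CPM with miR-497-5p. Replicate 2 with the microRNA lay within the control range, and the change was 0.45 ± 0.38 (95% interval -0.36 to 1.26, adjusted p 0.818). Set against the fall of MYBL1 in RNA-seq at the same time, the contrast of pull-down minus RNA-seq was 0.96 ± 0.22 (adjusted p 0.0435). The fit took 1 spread per gene for both assays, although libraries varied more in the pull-down. It did not pair an input with its pull-down. The standard error of 0.22 lay below the 0.38 of the pull-down effect alone. Standard errors and adjusted p-values of this contrast may therefore be too small. MYBL1 was the 1 member called in this contrast, against 1.34% of the 17078 genes tested, a share that ran from 0.236% (without RNA-seq control replicate 2) to 3.83% (without pull-down miR-497-5p replicate 1) on leaving out 1 library. The call was lost under RLE scaling (adjusted p 0.0531), with a length offset (0.0927), with the replicate number as a block in each assay (0.103, and 0.188 with block and offset) and on leaving out any 1 of 9 of the 12 libraries, namely the 6 of RNA-seq and control replicates 1 and 2 and miR-497-5p replicate 3 of the pull-down (adjusted p 0.0599 to 0.143), while the value kept its sign, from 0.78 to 1.12.

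At 72 h 3 of the 10 members were called in the pull-down, LIN9, LIN52 and MYBL2, all lower, against 22.7% of all genes (10.2% higher and 12.6% lower). The largest change was that of LIN9, with 72, 117 and 55 counts in the control libraries and 3, 1 and 8 counts with miR-497-5p. In CPM these were 3.59, 4.54 and 2.69 against 0.159, 0.135 and 0.453, and the groups were far apart. LIN9 fell by 3.75 on the log2 scale (± 0.73, 95% interval -5.26 to -2.23, adjusted p 0.000403), and each of the 6 sets of libraries with 1 left out kept the call (adjusted p 0.000666 to 0.00345). The value then ran from -4.54, without miR-497-5p replicate 3, to -3.44, without replicate 1. In RNA-seq of the same time LIN9 held 176 to 195 counts in the controls and 139 to 148 with miR-497-5p. Scaled for library size these were 6.76 to 7.86 and 6.71 to 7.83 CPM, and the groups overlapped. The contrast of pull-down minus RNA-seq was -3.69 ± 0.51 (adjusted p 8.18e-05), with a standard error below the 0.73 of the pull-down effect alone. At 12 h LIN9 was already uneven in the pull-down, with 64, 77 and 66 counts in the controls and 47, 103 and 24 with miR-497-5p (-0.51 ± 0.61, adjusted p 0.89). Its difference between the times was -3.24 ± 0.94 (adjusted p 0.023, against 12.2% of all genes called). That call was lost without any 1 of 6 of the 12 libraries, namely each of the 12 h controls, miR-497-5p replicate 2 of 12 h, control replicate 2 of 72 h and miR-497-5p replicate 1 of 72 h (adjusted p 0.0523 to 0.0805).

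**Figure D4:**
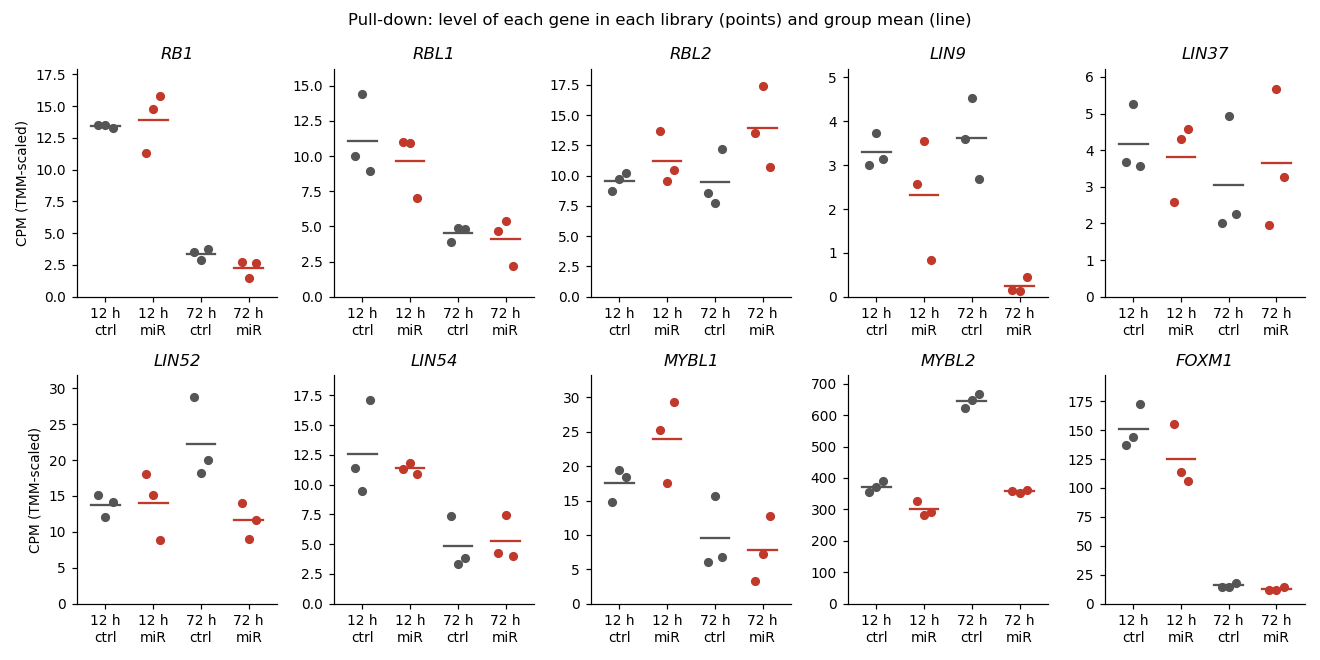
Pull-down level (CPM, scaled by TMM) of each gene in each library as points, with the group mean as a line; grey is control and red is miR-497-5p, at 12 h and 72 h. LIN9 with miR-497-5p at 72 h lies between 0.135 and 0.453 CPM, and MYBL2 at 72 h lies between 353 and 363 CPM with miR-497-5p and between 623 and 668 CPM in the controls.

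LIN52 held 28.8, 18.2 and 20 CPM in the pull-down controls at 72 h and 14, 9.05 and 11.7 CPM with miR-497-5p. The groups did not overlap, and LIN52 fell by 0.94 on the log2 scale (± 0.26, adjusted p 0.00966), a call lost if control replicate 1 was left out (adjusted p 0.0801) and also without replicate 2 of miR-497-5p, the library with the lowest total (adjusted p 0.0548). MYBL2 held 623, 647 and 668 CPM in the controls and 353, 358 and 363 CPM with miR-497-5p. It fell by 0.85 on the log2 scale (± 0.08, adjusted p 3.23e-08), to 0.554 of the control, and its difference between the times was -0.55 ± 0.12 (adjusted p 0.00242).

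The pull-down effect and the RNA-seq effect at 72 h were called as different for 4 of the 10 members, against 14.5% of the 16896 genes tested. The limit on the spread given for MYBL1 at 12 h applies here too. For all 4 the standard error of the contrast lay below that of the pull-down effect alone (0.05 against 0.08 for MYBL2). Their adjusted p-values may therefore be too small. MYBL2 fell less in the pull-down than in RNA-seq, by a difference of 0.63 ± 0.05 (adjusted p 3.15e-07). FOXM1 held 14.6, 14.8 and 17.8 CPM in the pull-down controls and 11.4, 11.5 and 14.4 CPM with miR-497-5p, groups that did not overlap, a change of -0.33 ± 0.16 (adjusted p 0.15) and a difference from RNA-seq of 1.25 ± 0.13 (adjusted p 4.28e-06). RB1, which rose in RNA-seq, held 2.87, 3.49 and 3.72 CPM in the pull-down controls and 1.49, 2.66 and 2.75 CPM with miR-497-5p. Its pull-down change was -0.5 ± 0.31 (adjusted p 0.285), and it differed from the rise in RNA-seq by -1.14 ± 0.28 (adjusted p 0.0115). LIN9, above, was the other member called. RBL2 went the opposite way to RB1, with 7.73, 8.58 and 12.2 CPM in the controls and 10.7, 13.5 and 17.4 CPM with miR-497-5p (0.54 ± 0.27, adjusted p 0.16), and its difference from RNA-seq missed the threshold (0.81 ± 0.27, adjusted p 0.053), which it passed in DESeq2 (adjusted p 0.0317).

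RBL1, LIN37, LIN54 and MYBL1 were not called in the pull-down at 72 h. Their changes were -0.17 ± 0.35, 0.21 ± 0.5, 0.09 ± 0.35 and -0.29 ± 0.4, and for each of these the groups overlapped. MYBL1 shows the spread: 5.99, 15.7 and 6.75 CPM in the controls and 3.33, 7.29 and 12.7 CPM with miR-497-5p. At 12 h RB1 (0.05 ± 0.28), RBL1 (-0.2 ± 0.33), RBL2 (0.23 ± 0.26), LIN37 (-0.12 ± 0.49), LIN52 (0.02 ± 0.26) and LIN54 (-0.15 ± 0.33) had adjusted p-values of 0.882 to 0.997. Groups that did not overlap were counted for 1, 7, 1 and 5 of the 10 members in RNA-seq at 12 h and 72 h and the pull-down at 12 h and 72 h, against 25.7%, 63.7%, 16.4% and 35.5% of all genes tested. The 5 of the 72 h pull-down were LIN9, LIN52, MYBL2, FOXM1 and RB1, all with miR-497-5p below control.

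The control pull-down also differed between the times by gene. FOXM1 went from 30.9 ± 3.84 RPKM at 12 h to 3.21 ± 0.366 RPKM at 72 h in the controls, whereas MYBL2 went from 134 ± 5.92 to 233 ± 8.05 RPKM and LIN52 from 3.74 ± 0.419 to 6.05 ± 1.54 RPKM. These are levels under the control mimic, and the difference between times within the controls was not tested. LIN52 was therefore the second most abundant member in the control pull-down of 72 h, above FOXM1, with no overlap between their libraries (4.93 to 7.81 against 2.99 to 3.64 RPKM).

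The genes around these complexes were described in 4 lists by role. Their counts are set beside the shares of all genes called, which in RNA-seq were 7.25% higher and 5.3% lower at 12 h and 27.9% and 29.6% at 72 h, and in the pull-down 0.326% and 0.269% at 12 h and 10.2% and 12.6% at 72 h. The E2F and DP factors and RBBP4, which is the histone-binding subunit of MuvB, formed a list of 8, all of them called in RNA-seq at 72 h, 5 higher and 3 lower, with a median of 0.23 against 0 for all genes, of which 57.5% were called. E2F1, an activating E2F held by RB1, fell by 0.97 on the log2 scale (± 0.05), and E2F4, the E2F of DREAM, fell by 0.27 (± 0.04). RBBP4 rose by 0.67 ± 0.05 and TFDP2, a DP partner, by 0.47 ± 0.05. At 12 h 1 of the 8 was called in RNA-seq, E2F4 (0.18 ± 0.04, adjusted p 0.000544), which was thus higher at 12 h and lower at 72 h. That count gained 2 lower calls without control replicate 1 or by library totals, 1 higher and 1 lower without miR-497-5p replicate 2, and 1 higher without replicate 3. In the pull-down at 12 h 1 was called, E2F3 (with 1 lower gene added without miR-497-5p replicate 1), and at 72 h 4 were higher and 2 lower (1 lower without control replicate 3 or miR-497-5p replicate 1).

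Of 13 kinases, cyclins and inhibitors that act on pocket proteins or MuvB, 0 rose and 5 fell in RNA-seq at 12 h (median -0.12 against 0.01 for all genes, of which 7.25% were higher and 5.3% lower), and 2 rose and 8 fell at 72 h (median -0.96, against 27.9% and 29.6% of all genes), with 1 higher when scaled by library totals. CDK4, which with cyclin D starts the phosphorylation of RB1, fell by 2.03 on the log2 scale at 72 h (± 0.05). CDK2, which completes it, fell by 1.52 (± 0.06), CCNA2, its cyclin A partner, by 1.26 (± 0.05) and CDKN2C, an inhibitor of CDK4 and CDK6, by 1.49 (± 0.06). The 2 that rose were the inhibitor CDKN1B (0.3 ± 0.05) and the cyclin CCND3 (0.19 ± 0.05), while the inhibitor CDKN1A fell by 0.56 (± 0.04). The genes that fell thus include both activating kinases and inhibitors, and the inhibitors moved in both directions. In the 12 h pull-down 2 of the 13 were higher, CCNE1 and CDK6, both also among the 5 lower in RNA-seq at 12 h. The 2 became 1 with a length offset, with the libraries of that comparison alone and without control replicate 1, control replicate 2 or miR-497-5p replicate 1, and 1 lower gene was added without control replicate 3. In the pull-down at 72 h 2 were higher and 5 lower, against 10.2% and 12.6% of all genes.

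Of 23 genes of DNA replication that E2F and DREAM control, 0 rose and 5 fell in RNA-seq at 12 h, where 5.3% of all genes were lower, and 0 rose and 21 fell at 72 h (median -0.68), where 29.6% of all genes were lower. The 5 became 3 without control replicate 2 or 3 of 12 h. TYMS and TK1, enzymes of thymidine nucleotide synthesis, fell by 1.46 (± 0.04) and 1.47 (± 0.05) on the log2 scale. GINS2, a part of the replicative helicase, fell by 1.14 (± 0.05), and FEN1, a nuclease of lagging-strand synthesis, by 1.34 (± 0.07). The 2 that were not called were POLA1 (0.07) and MCM6 (0.06). In the 12 h pull-down none of the 23 was called by edgeR's quasi-likelihood test or DESeq2. There were 3 at an unadjusted p under 0.05 in edgeR's test, against 1763 of the 17477 genes tested. At 72 h 1 was higher, MCM7, and 14 lower, against 10.2% and 12.6% of all genes. MCM7 was not called on leaving out any 1 of 5 of the 6 libraries, miR-497-5p replicate 1 being the exception.

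Of 32 genes of G2 and mitosis that DREAM represses and MYBL2-MuvB and FOXM1 activate, 2 rose and 6 fell in RNA-seq at 12 h (median -0.09, against 7.25% and 5.3% of all genes), and 1 rose and 30 fell at 72 h (median -0.74, against 27.9% and 29.6%). BIRC5 (survivin) fell by 1.7 (± 0.03), UBE2C, the ubiquitin-conjugating enzyme of the anaphase-promoting complex, by 1.37 (± 0.03), CKS2, a subunit of cyclin-dependent kinases, by 1.44 (± 0.04) and CENPA, the centromeric histone, by 1.18 (± 0.04). The value of FOXM1 at 72 h was below those of 31 of the 32 genes, BIRC5 being the exception. The gene that rose was TOP2A (0.11 ± 0.04, adjusted p 0.0146), which was not called when scaled by library totals, without a filter on low counts, or without control replicate 3, miR-497-5p replicate 2 or miR-497-5p replicate 3. At 12 h the 2 higher calls became 0 and the 6 lower calls 10 when scaled by library totals, and 3 were lower without control replicate 2 or 3. The 2 higher calls were also 0 with a length offset, and 1 without a filter, with the libraries of the comparison alone, or without control replicate 1, control replicate 2 or miR-497-5p replicate 1. In the 12 h pull-down none of the 32 was called by edgeR's quasi-likelihood test or DESeq2. There were 5 at an unadjusted p under 0.05 in edgeR's test, against 1763 of the 17477 genes tested. At 72 h 3 were higher and 17 lower, against 10.2% and 12.6% of all genes. Both times share no control libraries, but both assays of a time may come from the same cells, and the lists were chosen with results of these libraries known.

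**Figure D5:**
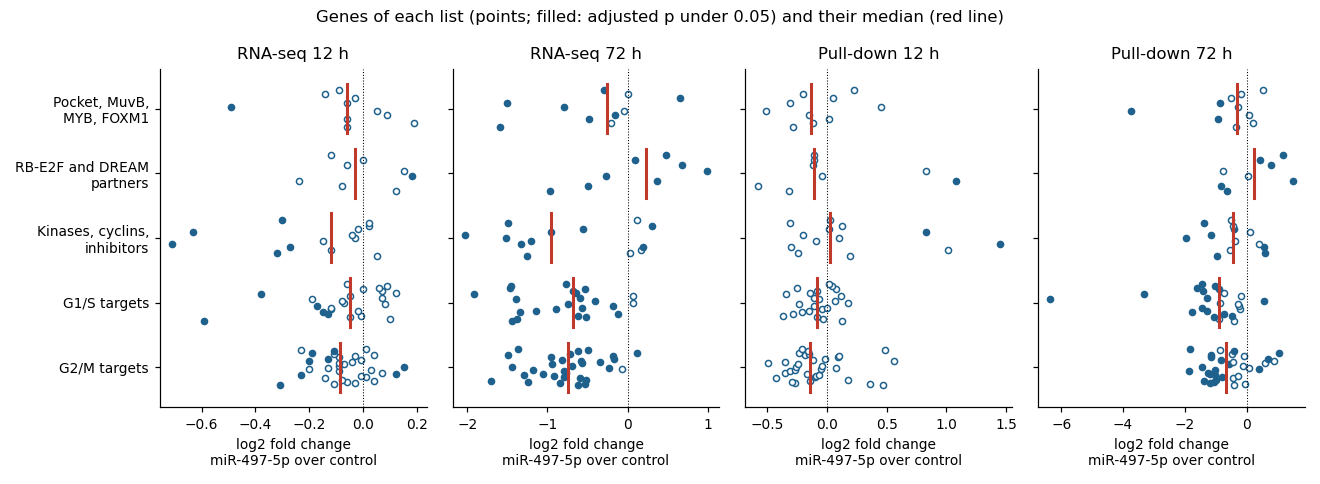
Log2 fold change, miR-497-5p over control, of the 10 members and of the genes of each list in the 4 comparisons; filled points passed an adjusted p of 0.05 and red lines are medians. At 72 h in RNA-seq the medians of the kinases, the G1/S targets and the G2/M targets lie at -0.96, -0.68 and -0.74, and that of the E2F and DREAM partners at 0.23.

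For each member called in RNA-seq at 72 h, the 2 genes with the most similar log2 CPM over the 12 RNA-seq libraries were found, members and genes with a mean under 5 CPM left out. The correlations (Pearson) are descriptions, since the libraries share groups and the groups differ between times. FOXM1 was most like AHSA1 and GRB2, both at 0.998, and MYBL2 most like ENTPD6 (0.995) and ALG3 (0.994). A high correlation here does not mean a fall of equal size. At 72 h AHSA1 and GRB2 changed by -0.77 and -0.81, against -1.59 for FOXM1. ENTPD6 and ALG3 changed by -1.08 and -1.36, against -1.5 for MYBL2. MYBL1 was most like RPS6KA3 (0.989) and ARHGAP35 (0.972), which changed by -0.42 and -0.32 at 12 h and by -0.62 and -0.59 at 72 h. RB1 was most like DNAJA2 (0.968) and ARHGEF3 (0.958), LIN54 most like SPCS1 (0.983) and EEF1E1 (0.982), LIN52 most like ACIN1 (0.979) and MVB12B (0.971), and RBL2 most like EP400 (0.955) and KIF14 (0.946).

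Promoters were searched in the 250 bases before each RefSeq start, on both strands, for E2F elements (TTTCCCGC, TTTGGCGC, TTTCGCGC) and CHR elements (TTTGAA or TTTAAA). No matches overlapped. Windows near the annotated gene start were at hand for 7 members. RBL1 held 2 E2F words, 26 and 16 bases before the start, and LIN52 held 1, 25 bases before it. Such a word was in 2.3% of all 35116 promoters, and in 3.0% of the 21363 of genes with a protein-coding 3′ UTR. RBL2 held 2 CHR words and LIN54 1, against 21.9% of all promoters and 18.2% of those of genes with a protein-coding 3′ UTR. A RefSeq start can lie inside the gene bounds given above. The words of RBL2, LIN52 and LIN54 lay inside those bounds. That of LIN54 lay within chr4:83010909-83010932, while the outermost annotated start of this minus-strand gene is at 83012926. LIN9, LIN37 and MYBL2 had no match, which says only that these letters are not in these windows.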

How the data were processed

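Each of the 24 deposited files gives raw counts of 1 library for 57500 gene identifiers. Per the submitters' processing notes the authors used Trimmomatic 0.36, STAR 2.5.2b and featureCounts of Subread 1.5.2, with GRCh38; per the labels uniquely placed reads within exons were counted. The annotation release and the strand setting are not given in the sources used here. Reads of near-identical copies are lost to an unknown degree.

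From these counts, 1 quasi-likelihood model (robust option) was fitted per assay to its 12 libraries with edgeR 4.0.16 (R 4.3.3), after filterByExpr at its defaults and TMM scaling. The contrast of pull-down minus RNA-seq used the 12 libraries of a time, with 1 estimate of the spread per gene for both assays and no pairing of an input with its pull-down. Benjamini-Hochberg adjustment ran over every gene tested, 0.05 being the threshold. The script was tested on simulated data. RPKM used the exon length in the deposited files. Symbols, positions and 3′ UTRs came from GENCODE 44 (98.1% of identifiers matched) and the microRNA and promoters from RefSeq. The members and lists were chosen with earlier results of these data known. The named list genes are the 4 with the smallest adjusted p in RNA-seq at 72 h; the values of others named were known when they were picked. Alternatives were other scalings, no filter, a replicate block, a length offset, DESeq2 1.42.0, fewer groups in the fit, and each library left out.

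Libraries with the same number deviated together in RNA-seq at 12 h (correlations of 0.1605, 0.1002 and 0.4864), so the numbers pair those samples by a rule of over 0.1 for each pair. In the other 3 comparisons every such pair was below 0.1, the highest being 0.07 for replicate 2 of the 12 h pull-down. No 2 files were identical.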

Additional observations from a re-analysis of the deposited data

Results flagged for a closer look

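Effects of miR-497-5p that differed between 12 h and 72 h are listed here by the test of the difference itself, an interaction contrast in edgeR's quasi-likelihood fit with Benjamini-Hochberg adjustment (effect at 72 h minus effect at 12 h, log2). It called 6 of the 10 members in RNA-seq, against 48.8% of all genes tested, and 2 of 10 in the pull-down, against 12.2%. Both counts are near these shares. In RNA-seq RB1 differed by 0.68 (adjusted p 5.23e-07), with a value near 0 at 12 h and a rise at 72 h. LIN52 differed by -0.41 (adjusted p 0.0124), LIN54 by -0.25 (adjusted p 0.0272) and MYBL1 by -0.31 (adjusted p 0.0032). The differences of MYBL2 and FOXM1 were -1.44 (adjusted p 3.15e-26) and -1.53 (adjusted p 4.62e-28). In the pull-down LIN9 differed by -3.24 (adjusted p 0.023) and MYBL2 by -0.55 (adjusted p 0.00242). The LIN54 difference was lost in DESeq2 (adjusted p 0.0771) and without any 1 of control replicate 1, miR-497-5p replicate 2 or miR-497-5p replicate 3 of 12 h, or control replicate 3, miR-497-5p replicate 1 or miR-497-5p replicate 3 of 72 h (adjusted p 0.0568 to 0.11).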

How the results depend on the processing

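Called members in RNA-seq at 12 h numbered 1, but 3 with scaling by library totals, 2 with a length offset, 2 with the replicate block and the length offset together, and 1 to 2 on leaving out 1 library. In the pull-down at 12 h the count was 0, against 1 in DESeq2 and 0 to 1 on leaving out 1 library. For the effect at 72 h minus that at 12 h the pull-down count was 2, against 1 with the replicate block, 1 with the block and the length offset, and 1 to 3 on leaving out 1 library, and the RNA-seq count was 6, against 4 to 7. Of all genes, 12.2% were called in this contrast in the pull-down and 48.8% in RNA-seq. The contrast of pull-down minus RNA-seq at 12 h called 1 member, against 0 under RLE scaling, the replicate block, the length offset or block and offset together, and 0 to 1 on leaving out 1 library. At 72 h the counts of 7 (RNA-seq) and 3 (pull-down) were 6 to 7 and 2 to 3 on leaving out 1 library, and the RNA-seq count was 6 in DESeq2 and with RLE scaling, the block, the length offset or block and offset, LIN54 being the member lost. The replicate block changed no call of a member in RNA-seq at 12 h, where the numbers pair the samples by the rule used, although control replicate 2 deviated more like miR-497-5p replicate 1 (0.1838) than like its own number (0.1002). In the other comparisons within an assay the samples share only a number, and there too not every library deviated most like its own. With the block the adjusted p was 0.0524 for LIN54 in RNA-seq at 72 h, 0.0674 for LIN9 in the pull-down difference between times and, in the contrast that uses the paired RNA-seq libraries of 12 h, 0.103 for MYBL1 in pull-down minus RNA-seq. Values that changed sign were all uncalled. RBL1 in RNA-seq at 72 h was -0.11 by library totals, -0.03 without a filter and -0.00 with the libraries of the comparison alone; LIN9 was 0.02 with the length offset and 0.02 with block and offset; LIN52 in the pull-down at 12 h was -0.03 with the block and -0.01 with block and offset. On leaving out 1 library the ranges were, in RNA-seq at 12 h, RB1 -0.09 to 0.03, LIN9 -0.09 to 0.16 and LIN52 -0.11 to 0.01; in RNA-seq at 72 h, RBL1 -0.04 to 0.05, LIN9 -0.12 to 0.0 and LIN37 -0.32 to 0.01; in the pull-down at 12 h, RB1 -0.04 to 0.21, RBL1 -0.33 to 0.02, LIN37 -0.27 to 0.12, LIN52 -0.18 to 0.26 and LIN54 -0.34 to 0.13; and in the pull-down at 72 h, RBL1 -0.4 to 0.14, LIN37 -0.24 to 0.74, LIN54 -0.22 to 0.51 and MYBL1 -0.92 to 0.28. Among other settings 398 of 430 member values kept their direction and side of the threshold, and 371 of 432 did on leaving out 1 library. Over all genes the pull-down at 12 h called 104, against 324 in DESeq2, 217 without a filter, 53 with the block, 56 with block and offset, and 64 to 268 on leaving out 1 library (64 without miR-497-5p replicate 3, 169 without its replicate 1 and 268 without control replicate 3). For pull-down minus RNA-seq at 12 h the 229 calls became 881 in DESeq2, 573 without a filter, 400 by library totals (367 higher and 33 lower, against 168 and 61), 64 with the block, 112 with the length offset, 27 with both, and 42 to 683 on leaving out 1 library (42 to 57 without any 1 RNA-seq library, and 134, 463, 683 and 370 without pull-down control replicates 2 and 3 and miR-497-5p replicates 1 and 2). RLE scaling gave 127 higher and 116 lower there. At 72 h that contrast had 1260 higher and 1185 lower, and 2085 and 747 by library totals, which put the median of all genes at 0.136 instead of 0.002, and at 0.132 instead of 0.011 at 12 h. The cause of these differences was not tested. Depth limits LIN9 in the pull-down at 72 h, with 1 to 8 counts in a library with miR-497-5p.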
